A study of Mus musculus with 4 samples.

Results

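Interferon-stimulated genes were followed across 4 sorted populations of mouse CD4+ T cells, each read on 1 Affymetrix Mouse Genome 430 2.0 array. The list holds 37 genes induced by type I or type II interferon, and a gene was read where the array's annotation gave a probe set (the group of probes that reports a transcript) with exactly 1 gene. Of the 37 genes, 35 had such a probe set and all 35 were measured, among 9622 measured genes in all. Ifi44 had none, and the probe set of Isg15 was listed with a second gene, so both were left out. The cells came from the spleens and lymph nodes of 25 pooled male Foxp3-GFP knock-in mice of a B6/129 F2 background, aged 5 to 8 weeks. In these mice green fluorescent protein (GFP) reports Foxp3, the transcription factor of regulatory T cells, and all 4 populations carried the knock-in and had no treatment named in the labels. Cells bearing CD8, B220, CD11b, NK1.1 or DX5 were depleted, and the CD4+ cells were sorted by GFP and by surface CD25, a chain of the IL-2 receptor. This gave CD25hi and CD25lo cells among those with Foxp3, and CD25+ and CD25- cells among those without it, listed in this order below. With 1 array per population there are no replicates, so every difference below was judged by its size and no test was made. The number of arrays limits the precision.

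Type I interferons signal through the receptor chains Ifnar1 and Ifnar2 to ISGF3, a complex of STAT proteins with IRF9, which binds the interferon-stimulated response element (ISRE). Interferon gamma, the type II interferon made by T and NK cells, signals through Ifngr1 and Ifngr2 to STAT dimers, which bind the gamma-activated sequence (GAS). The induced genes encode sensors of viral RNA, antiviral enzymes, GTPases that attack vacuoles of intracellular pathogens, and parts of the antigen processing machinery. In T cells many of them are also expressed at a resting level.

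Most members read lowest in CD25+ Foxp3- cells on the deposited scale. Of 35 members 22 were lowest there (62.9%), against 30.6% of all measured genes, and 18 were highest in CD25- Foxp3- cells (51.4%), against 30.7%. In turn 2 members were highest in CD25+ Foxp3- cells, Bst2 and Irf8, against 30.1% of all genes, and 5 were lowest in CD25- Foxp3- cells, Mx1, Eif2ak2, Irf8, Gbp3 and Iigp1, against 28.4%. With the arrays scaled to the hybridisation controls, a choice made after seeing the data, 14 members were lowest in CD25+ Foxp3- cells, against 9.75% of all genes, and 21 were highest in CD25- Foxp3- cells, against 30.0%. Ifit1, Ifit3, Oas2 and Mx2 of the antiviral families and the regulators Irf1, Irf7 and Usp18 were among those at least 2-fold lower in CD25+ Foxp3- than in CD25- Foxp3- cells. A smaller set of 3 members (8.57%), Gbp3, Iigp1 and Isg20, was higher in both Foxp3+ populations than in both others by at least 1.5-fold, against 2.8% of all genes. Isg20 was also among those lowest in CD25+ Foxp3- cells. Scaled to the hybridisation controls, Gbp3 alone kept that gap. Across the 4 arrays 17 members varied by less than 2-fold and 18 by 2-fold or more, a count that was not made over all measured genes.

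**Figure D1:**
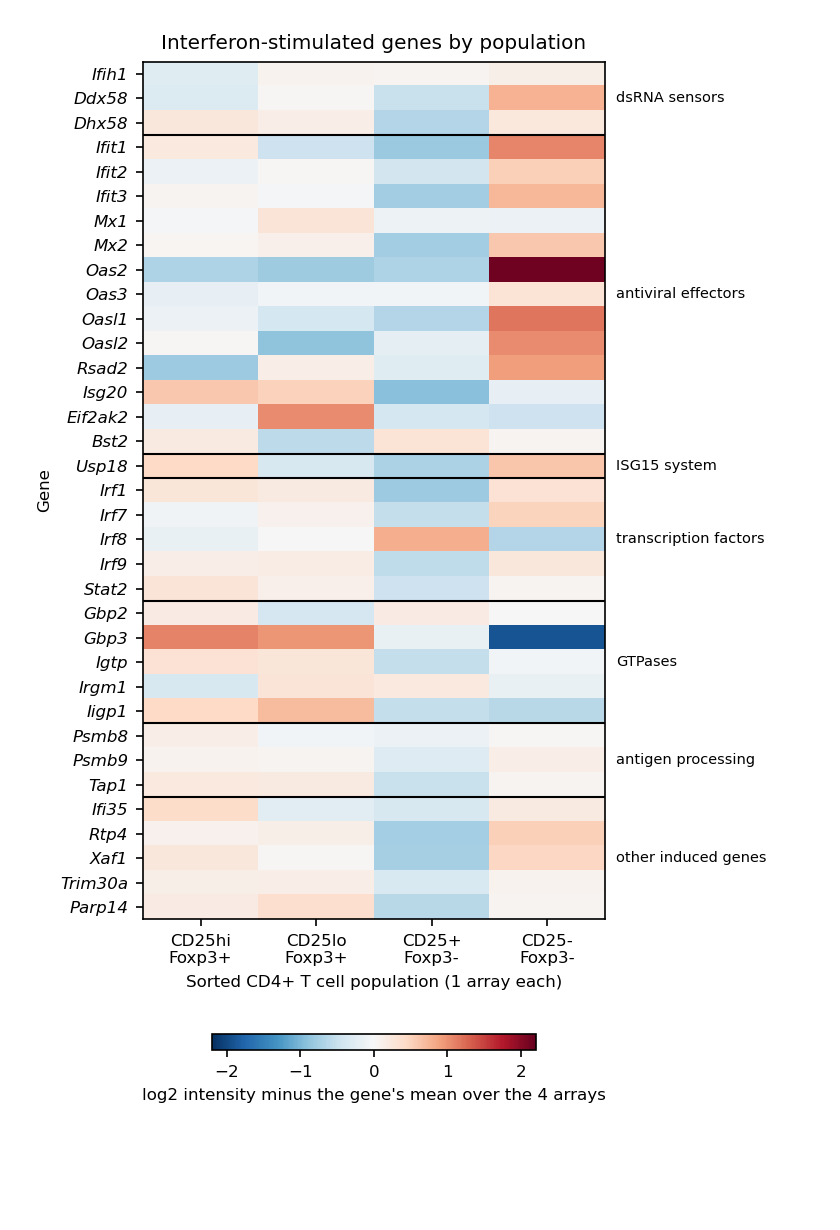
Heat map of the 35 measured members (rows, grouped by role) in the 4 sorted populations (columns, 1 array each); the colour is the log2 intensity minus the gene's mean over the 4 arrays. The CD25+ Foxp3- column is the lowest in 22 rows, Oas2 stands out in the CD25- Foxp3- column, and Gbp3 is lowest there.

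The arrays had similar scales, with median intensities between 15.03 and 15.6 and between 39.7% and 40.3% of probe sets at or above the filter intensity of 32.5. A gene counted as measured if 1 of its arrays reached this filter, and intensities under the floor of 10.1 were set to the floor; no member was at the floor in the probe set used, and 33 members were above the filter in all 4 arrays. Foxp3 itself, at 1308 and 1117 in cells sorted for it, was near background at 16.8 and 17.6 in the others, and Il2ra, the CD25 gene, read 1562, 288, 283 and 22.3 in the order just named, so the CD25lo Foxp3+ and CD25+ Foxp3- arrays hardly differed in it. The 6 measured CD4 T cell markers, Cd3e and Cd4 among them, read between 497 and 9946 over the 4 arrays. Hybridisation control transcripts, spiked into each sample, read lowest in the CD25+ Foxp3- array, on average by 0.22 on the log2 scale under the CD25- Foxp3- array over 18 probe sets and by 0.50 under the CD25hi Foxp3+ array. The ratio of 3' to 5' signal, a sign of RNA quality, was 1.94, 2.21, 2.65 and 2.29 for beta-actin and 2.40, 2.33, 2.28 and 3.21 for Gapdh in the same order.

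The promoters of the members can be read for both elements. RefSeq promoter windows (build GRCm38.p6, 250 bases before to 50 bases after the transcription start) were held for 29 of the 37 genes and were searched on both strands for the ISRE core, GAAA, any 2 bases and GAAA again, and for the GAS core TTCNNNGAA, and matches may overlap. The ISRE core stood in 15 of the 29 genes (51.7%), against 3.99% of all 27025 genes with a window and 3.44% of all windows. The GAS core stood in 9 of the 29 (31.0%), against 9.55% of all genes and 8.3% of windows. The 160 bases just before the start follow, 5' to 3' on the gene's strand, for members on which the results turn. Ifit1, Ifit3, Rsad2, Oasl1 and Irf1 stand for the genes low in CD25+ Foxp3- cells, Gbp3 and Isg20 for those high in Foxp3+ cells, and Igtp for a gene with both cores. Capitals mark each core match, which reads TTTC, 2 bases and TTTC where the ISRE lies on the other strand.
Ifit1: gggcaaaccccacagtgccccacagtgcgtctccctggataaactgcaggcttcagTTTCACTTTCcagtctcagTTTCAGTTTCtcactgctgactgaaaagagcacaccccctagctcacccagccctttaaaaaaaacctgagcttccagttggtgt
Ifit3: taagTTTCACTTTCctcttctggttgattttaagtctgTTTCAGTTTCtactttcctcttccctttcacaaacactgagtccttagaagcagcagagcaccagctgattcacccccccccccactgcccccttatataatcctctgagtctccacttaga
Rsad2: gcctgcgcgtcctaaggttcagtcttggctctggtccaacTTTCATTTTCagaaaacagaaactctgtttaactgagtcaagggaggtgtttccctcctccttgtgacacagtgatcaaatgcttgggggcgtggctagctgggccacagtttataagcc
Oasl1: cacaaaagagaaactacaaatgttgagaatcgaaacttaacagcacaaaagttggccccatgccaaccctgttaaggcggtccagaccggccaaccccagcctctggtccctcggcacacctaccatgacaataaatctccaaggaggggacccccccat
Irf1: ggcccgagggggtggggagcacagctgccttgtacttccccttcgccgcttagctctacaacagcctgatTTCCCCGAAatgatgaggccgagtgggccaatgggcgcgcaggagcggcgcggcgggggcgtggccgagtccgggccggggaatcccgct
Gbp3: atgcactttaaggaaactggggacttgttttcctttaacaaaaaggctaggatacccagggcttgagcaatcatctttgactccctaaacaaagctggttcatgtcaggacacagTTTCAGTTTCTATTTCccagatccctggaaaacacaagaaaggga
Isg20: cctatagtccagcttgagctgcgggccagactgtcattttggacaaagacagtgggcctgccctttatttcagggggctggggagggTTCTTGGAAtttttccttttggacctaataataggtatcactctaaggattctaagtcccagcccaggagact
Igtp: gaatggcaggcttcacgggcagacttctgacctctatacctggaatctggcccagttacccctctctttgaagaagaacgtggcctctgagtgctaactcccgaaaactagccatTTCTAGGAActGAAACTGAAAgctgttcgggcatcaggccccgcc
The windows lie, by their RefSeq coordinates, for Ifit1 at chr19:34640729-34640888 (plus strand), Ifit3 at chr19:34583369-34583528 (plus strand), Rsad2 at chr12:26456453-26456612 (minus strand), Oasl1 at chr5:114923080-114923239 (plus strand), Irf1 at chr11:53769854-53770013 (plus strand), Gbp3 at chr3:142559884-142560043 (plus strand), Isg20 at chr7:78913264-78913423 (plus strand) and Igtp at chr11:58199396-58199555 (plus strand). Ifit1 and Ifit3 each held 2 separate ISRE cores, Rsad2 held 1, and Gbp3 held 2 that overlap. Irf1 and Isg20 held a GAS core and no ISRE core, and Igtp held a GAS core followed by an ISRE core. Oasl1 held neither, which says only that these letters are not in its window. The core was no more frequent among the low genes. Of the members at least 2-fold lower in CD25+ Foxp3- than in CD25- Foxp3- cells 9 had a window, and 4 of these held an ISRE core, against 10 of the 18 other measured members. The GAS core stood in 1 of these 9, Irf1, and in 8 of the 18 others. A match describes letters and is neither a bound site nor a cause. Irf1 and Gbp3 have 2 windows each and Isg20 has 3, of which 1 each is given. The window given was chosen because it held the most core matches, and the other windows of these genes held none.

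**Figure D2:**
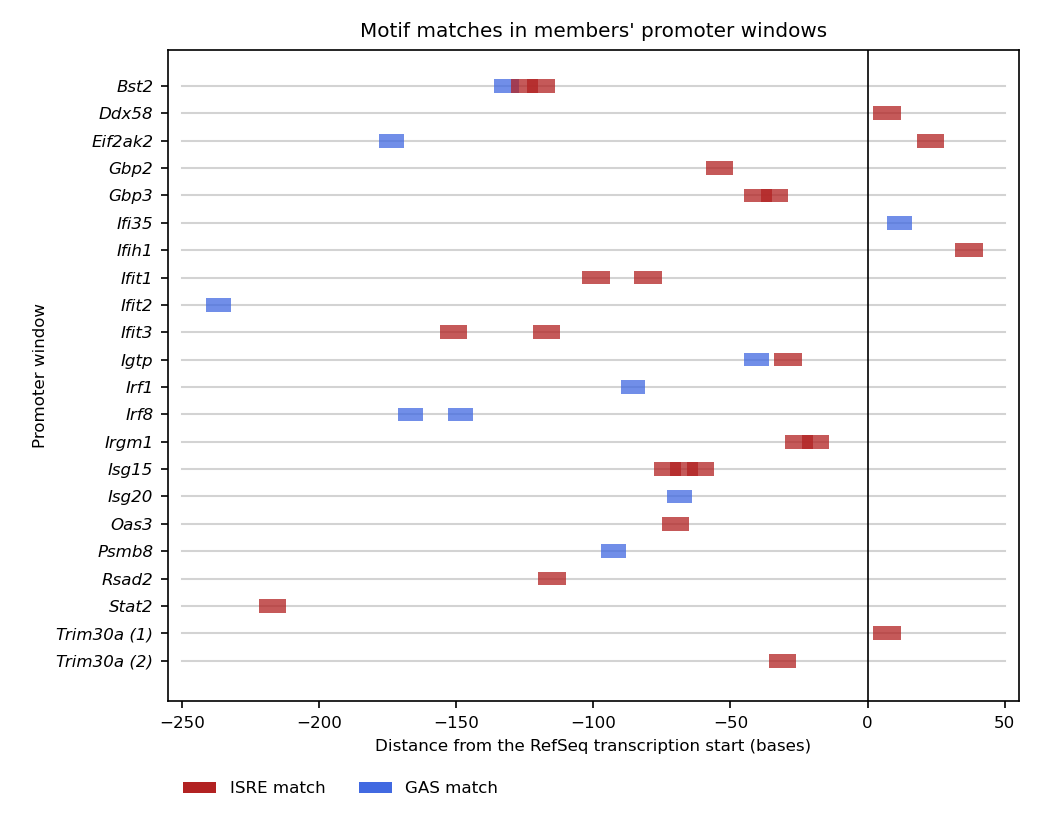
Positions of ISRE core matches (red) and GAS core matches (blue) in the members' promoter windows that held at least 1, against the distance in bases from the RefSeq transcription start; Trim30a has 2 windows. Most matches lie before the start, and those of Ddx58, Eif2ak2, Ifih1, Ifi35 and 1 Trim30a window include matches after it.

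The comparison of the Foxp3- populations asks how these genes differ with CD25 among cells without Foxp3. Here 13 of 35 members were at least 2-fold lower (37.1%), against 6.43% of all measured genes, and 2 were at least 2-fold higher, against 12.1% of all. The 13 include Oasl1 and Oasl2, which reached the filter in the CD25- Foxp3- array alone, so the filter itself decided their direction. With every array required to reach the filter, 11 of 33 members were lower, against 5.98% of all genes under that filter. The median log2 difference of the members was -0.66, while that of all measured genes was -0.01.

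Among the cytosolic sensors of double-stranded RNA, Ddx58, which encodes RIG-I, read 404 in the CD25hi and 504 in the CD25lo population with Foxp3, 352 in CD25+ Foxp3- cells, and 846 in those without either marker. CD25- Foxp3- cells were thus above the other populations, 2.40-fold over CD25+ Foxp3- and 2.09-fold over CD25hi Foxp3+ cells. A second Ddx58 probe set read 101, 104, 72.5 and 187 in the same order of populations, which is used for all 4-value series below. Dhx58, the related regulator LGP2, read 176, 164, 94.6 and 173, so CD25+ Foxp3- cells alone were low, by 1.83-fold against CD25- Foxp3- cells. Ifih1, which encodes MDA5, read 866, 1104, 1087 and 1134 and varied by no more than 1.31-fold.

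The Ifit genes encode proteins that bind foreign RNA and block its translation. Ifit1 read 320.2, 201, 156 and 582, and was 3.73-fold lower in CD25+ Foxp3- and 2.90-fold lower in CD25lo Foxp3+ than in CD25- Foxp3- cells. Ifit3, its partner in that complex, read 492, 468, 279 and 787, a 2.82-fold difference between the Foxp3- populations. For both genes CD25- Foxp3- cells were highest and CD25+ Foxp3- cells lowest, with the Foxp3+ populations between them. Ifit2 had the same order at its ends with 1150.5, 1286, 953 and 1813, at 1.90-fold just under the 2-fold rule. Ifit2 and Ifit3 are neighbours with no protein-coding gene between them, and Ifit1 lies 3 protein-coding genes further on, so their shared low reading is at 1 locus.

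The Oas genes encode synthetases of the oligoadenylates that switch on RNase L, and the Oas-like genes encode related proteins. Oas2 read 64.2, 59.7, 63.9 and 454. The 3 populations that bear CD25 or Foxp3 lay within 1.08-fold of each other, and CD25- Foxp3- cells were 7.10-fold above CD25+ Foxp3- cells and 7.61-fold above CD25lo Foxp3+ cells. Its neighbour Oas3 did not follow, with 65.6, 71.8, 71.5 and 92.3. Oasl1 read 20.9, 17.4, 14.6 and 51.6, and its neighbour Oasl2 read 27.8, 14.9, 24 and 56.5. Both were at least 2-fold higher in CD25- Foxp3- cells than in each other population, but passed the filter in that array alone, so the difference itself decided that they were measured and the size of their folds is uncertain.

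Among the other antiviral effectors, Rsad2, which encodes viperin, a radical enzyme that makes a chain-terminating nucleotide, read 61.6, 119, 89.0 and 204. It was 3.32-fold lower in CD25hi Foxp3+ and 2.29-fold lower in CD25+ Foxp3- than in CD25- Foxp3- cells. Mx2, a dynamin-like GTPase, read 61.1, 64.4, 35.1 and 89.7, so CD25+ Foxp3- cells were lowest, at 2.56-fold under CD25- Foxp3- cells. Mx1, its relative, varied by 1.33-fold at most, with 173, 218, 165 and 164. Usp18, the protease that removes ISG15 from proteins and restrains the type I receptor, read 488, 285, 223 and 552. It was 2.47-fold lower in CD25+ Foxp3- than in CD25- Foxp3- cells and 2.19-fold lower than in CD25hi Foxp3+ cells, while CD25lo Foxp3+ cells read close to CD25+ Foxp3- cells.

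Of the transcription factors, Irf1, which drives antigen processing genes, read 4902, 4657, 2342 and 5084. CD25+ Foxp3- cells read 2.17-fold below CD25- Foxp3- cells and the other 3 populations lay within 1.09-fold of each other. Irf7, the factor that amplifies type I interferon production, read 207, 232, 151 and 307, with a difference of 2.03-fold between the Foxp3- populations. Irf9 and Stat2, parts of ISGF3, had the same lowest population without reaching 2-fold, Irf9 with 814, 824, 499.7 and 875 and Stat2 with 132, 117, 78.8 and 113. In a second Stat2 probe set, at 92.3, 91.9, 60.7 and 62.4, the Foxp3- populations hardly differed. Irf8, a factor of B and myeloid cells that T cells can also express, went the other way and read 231, 259, 446 and 164. CD25+ Foxp3- cells were 2.72-fold above CD25- Foxp3- cells, and a second Irf8 probe set read 77.9, 83.8, 147 and 60.3. The 5 measured B cell markers summed to 156, 228, 302 and 348 in the order of the populations and the 8 measured myeloid markers to 214, 491, 806 and 844, so both sums were lower in the CD25hi Foxp3+ array than in the others. Single markers differed in direction between the Foxp3- populations. Of the B cell markers 2 were at least 2-fold higher in CD25+ cells, Cd22 by 2.57-fold and Blk by 2.31-fold, and 1 was lower. Of the myeloid markers 2 were higher, Fcer1g, a signalling chain of Fc receptors, by 13.7-fold and Adgre1 by 2.15-fold, and 3 were lower. Blk, Fcer1g and Adgre1 reached the filter in the CD25+ Foxp3- array alone. S100a8, among the lower myeloid markers, reached it in the CD25- Foxp3- array alone. For these genes the difference itself decided that they were measured. The part of these markers in the Irf8 reading was not tested.

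Rtp4, a chaperone of receptors, read 465, 473, 259 and 624, and Xaf1, an antagonist of the apoptosis inhibitor XIAP, read 1188, 1023, 606 and 1371. Both were lowest in CD25+ Foxp3- cells, by 2.41-fold and 2.26-fold against CD25- Foxp3- cells. A second Xaf1 probe set read 313, 421, 304 and 418, and with the median over probe sets Xaf1 did not reach 2-fold. Parp14, an ADP-ribosyltransferase, read 1779, 2033, 1036 and 1638, and Ifi35 read 6125, 3972, 3624 and 5311. Trim30a read 3124, 3156, 2259 and 3017, but its second probe set read 982, 1502, 1331 and 429 and so ran the other way between the Foxp3- populations. The antigen processing genes Psmb8 and Psmb9, subunits of the immunoproteasome, and Tap1, the peptide transporter chain, are direct neighbours. All 3 were lowest in CD25+ Foxp3- cells but differed little. Psmb8 read 7219, 6253, 5944 and 6652, and Psmb9 read 3264, 3193, 2514 and 3421. Tap1 read 1903, 1885, 1166 and 1704. The log2 differences between the Foxp3- populations ran from -0.55 to -0.16.

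**Figure D3:**
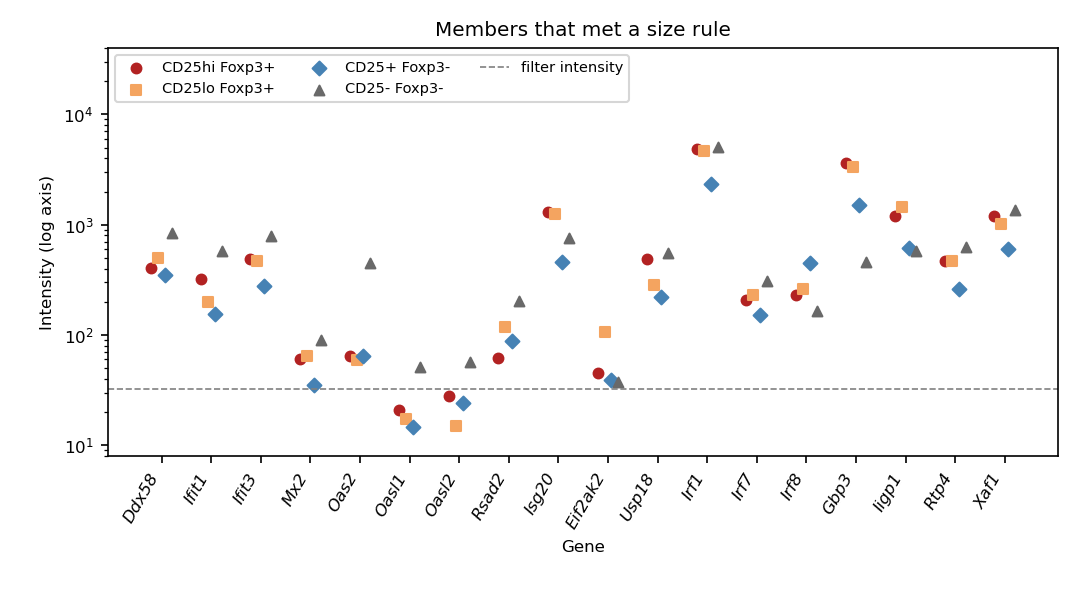
Intensity on a log axis of the 18 members that met a size rule, in the 4 populations (symbols, 1 array each); the dashed line is the filter intensity of 32.5. The triangle of CD25- Foxp3- cells is highest for the Ifit and Oas genes, and the diamond of CD25+ Foxp3- cells is lowest for Irf1, Rtp4 and Xaf1; Gbp3 and Iigp1 are highest in the 2 Foxp3+ populations.

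Further probe sets give a partial check on the size of these differences. Of 15 further probe sets of 13 members that reached the filter, 11 differed in the same direction as the one used between the Foxp3- populations. Those of Eif2ak2 (1 of its 2), Gbp2, Psmb8 and Trim30a did not. Over all 4425 genes with at least 2 measured probe sets, the log2 differences of the 2 brightest probe sets in this comparison lay a median of 0.41 apart, and 1 in 10 genes exceeded 1.12. Readings of 1 gene can therefore disagree by as much as the 2-fold rule.

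**Figure D4:**
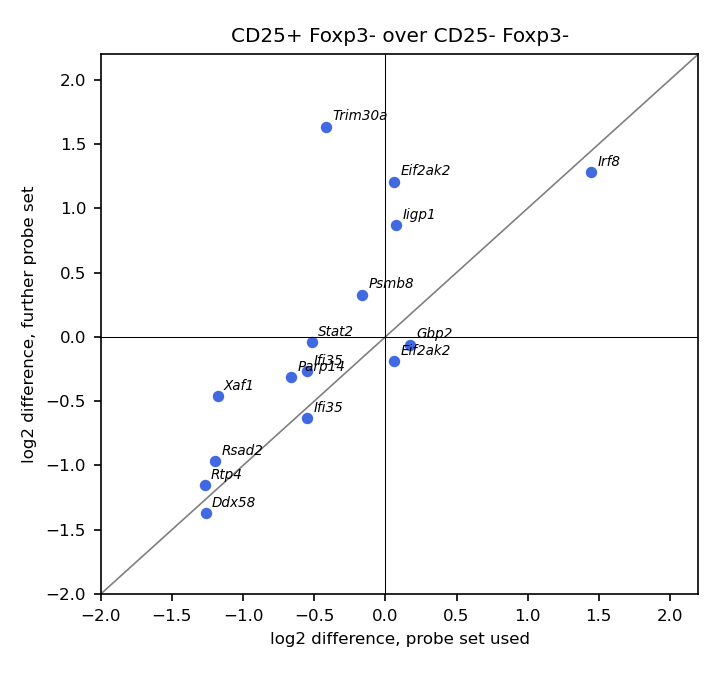
Log2 difference of CD25+ over CD25- Foxp3- cells for the further probe sets of members (vertical axis) against the probe set used (horizontal axis); each point is 1 further probe set and the line marks equality. Ddx58, Rtp4 and Rsad2 are low in both readings and Irf8 high in both, while Trim30a differs in sign, at -0.42 and 1.63.

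Several measures moved with this comparison, and their part in the result was not tested. The CD4 T cell markers also had a negative median log2 difference between the Foxp3- populations, -0.48, though no marker of the 6 reached 2-fold, and summed to 24735, 28529, 19274 and 26255. The 9 measured markers of CD8 T and NK cells summed to 674, 666, 2166 and 2433. Single markers differed in direction between the Foxp3- populations. In CD25+ cells 2 were at least 2-fold higher, Eomes by 3.89-fold and Ncr1 by 3.39-fold, and 3 were lower, Klrd1, Prf1 and Gzma. Ncr1 reached the filter in the CD25+ Foxp3- array alone. Of the 7 markers of plasmacytoid dendritic cells with a probe set, Siglech, Cox6a2, Ly6d and Spib stayed below the filter in all arrays, and the 3 measured ones summed to 476, 336, 363 and 369. Cd79a, Pax5, Ebf1 and Fcer2a of the B cell list and Cd14, Itgam, Itgax, Xcr1 and Flt3 of the myeloid list were also below the filter in all arrays. With arrays scaled to the hybridisation controls instead, 9 members were at least 2-fold lower, without Rsad2, Xaf1, Irf1 and Irf7, and Gbp3 and Irf8 were higher. Of all genes, 3.48% were lower and 17.2% higher on that scale. There the members' median was -0.44 and that of all genes moved to 0.22. Less RNA per cell and fewer cells expressing a gene cannot be told apart in bulk samples.

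The next comparisons set the Foxp3+ populations against CD25- Foxp3- cells, the population without either marker. These comparisons share the CD25- Foxp3- array, and the comparison above uses it too. In CD25hi Foxp3+ cells 5 of 35 members were at least 2-fold lower (14.3%), against 3.74% of all genes, and 2 were higher, against 7.09% of all. The lower ones were Ddx58, Oas2, Oasl1, Oasl2 and Rsad2, given above. In CD25lo Foxp3+ cells 4 were lower (11.4%), against 6.88% of all genes, namely Ifit1, Oas2, Oasl1 and Oasl2, and 3 were higher, against 9.09%. The members' medians were -0.07 and -0.13, against 0.02 and -0.05 for all genes, so the middle of the list lay near the level of CD25- Foxp3- cells in both. The antiviral effectors alone, 13 genes, had medians of -0.66 and -0.65 here and of -1.20 for the CD25+ Foxp3- population. Without Oasl1 and Oasl2, which fall away where every array must reach the filter, the counts of lower members were 3 and 2 of 33. Of all genes under that filter 2.39% and 5.66% were lower, so the count for CD25lo cells was near the share of all genes. Of the 9 measured CD8 T and NK cell markers, 8 were at least 2-fold lower in each Foxp3+ population than in CD25- Foxp3- cells. Their part in the members' differences was not tested.

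Of the 5 GTPases 2, Gbp3 and Iigp1, were at least 2-fold higher in each Foxp3+ population than in CD25- Foxp3- cells. The members' shares there, 5.71% for CD25hi and 8.57% for CD25lo cells, lay below the 7.09% and 9.09% of all genes. Gbp3, a guanylate-binding protein that coats pathogen vacuoles, read 3614, 3331, 1524 and 455. Both Foxp3+ populations lay above both Foxp3- populations, by 7.95-fold and 7.33-fold over CD25- Foxp3- cells, and CD25+ Foxp3- cells were 3.35-fold over them as well. Iigp1, an immunity-related GTPase, read 1202, 1433, 614 and 582, with the Foxp3- populations within 1.06-fold of each other. A second Iigp1 probe set read 739, 813, 453 and 249. Isg20, an exonuclease that degrades single-stranded RNA, read 1304, 1242, 461 and 765, and was 2.83-fold and 2.69-fold higher in the Foxp3+ populations than in CD25+ Foxp3- cells. Eif2ak2, the kinase PKR that halts translation, was high in CD25lo Foxp3+ cells alone, with 45.0, 106, 39.0 and 37.3, but its further probe sets, at 49.3, 42.0, 24.2 and 27.6 and at 21.3, 43.4, 32.4 and 14, did not agree on that order.

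A pairing asks for a gap of 1.5-fold or more between the lower array of one pair and the higher array of the other pair. By this rule 3 of 35 members were higher in both Foxp3+ arrays (8.57%), against 2.8% of all measured genes, and none was lower, against 1.93%. The gap was 2.19-fold for Gbp3, 1.96-fold for Iigp1 and 1.62-fold for Isg20. Scaled to the hybridisation controls, Gbp3 alone kept a gap of 1.5-fold. The other GTPases did not pass. Gbp2, which is separated from Gbp3 by 1 protein-coding gene, read 2562, 1750.3, 2534 and 2248. The GTPase Igtp read 6492, 6194, 3619 and 4941, and its relative Irgm1 read 494, 764, 729.9 and 562. The Gbp2 probe set and that of Ifi35 are of the types that can bind related transcripts, so their readings are uncertain. No member passed the pairing of CD25hi Foxp3+ and CD25+ Foxp3- against CD25lo Foxp3+ and CD25- Foxp3- cells. Of all genes 1.1% were higher by it and 0.187% lower. Il2ra did not pass it either, with 288 in CD25lo Foxp3+ and 283 in CD25+ Foxp3- cells. The pairing thus cannot tell whether a member follows the level of CD25. The pairing that follows neither marker, a yardstick, had 2 members higher in CD25hi Foxp3+ and CD25- Foxp3- cells, Ifit1 and Usp18, against 1.45% of all genes, and none lower, against 1.6%.

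Between the Foxp3+ populations few members differed by size. CD25hi and CD25lo Foxp3+ cells differed by 2-fold or more in 1 of 35 members, Eif2ak2, which was lower in CD25hi cells, against 2.5% of all genes lower and 3.21% higher. The median log2 difference was 0.03, and -0.14 with the hybridisation controls, where that of all genes was -0.11. The widest differences short of 2-fold were in Rsad2, 1.93-fold lower in CD25hi cells, in Oasl2, 1.86-fold higher, and in Usp18 and Bst2, each 1.71-fold higher. Bst2, which encodes tetherin, a protein that holds budding viruses to the cell, read 175, 102, 189 and 159.8.

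Against CD25+ Foxp3- cells, most members read higher in the Foxp3+ populations, 29 of 35 for CD25hi and 30 of 35 for CD25lo cells, against 5044 and 4751 of all 9622 measured genes. CD25hi Foxp3+ cells were at least 2-fold higher in 5 of 35 members (14.3%), against 4.82% of all genes, namely Ifit1, Isg20, Usp18, Irf1 and Gbp3, and in none lower, against 6.84% of all. CD25lo Foxp3+ cells were at least 2-fold higher in 4, Isg20, Eif2ak2, Gbp3 and Iigp1 (11.4%), against 5.17% of all genes, and in none lower, against 9.04%. The medians were 0.52 and 0.48, against 0.03 and -0.01 for all genes. These differences depended on the scale: with the hybridisation controls the counts were 1 higher and 3 lower for CD25hi cells and 2 higher and 3 lower for CD25lo cells, with medians of 0.020 and 0.15. On that scale 1.57% of all genes were higher and 18.6% lower for CD25hi cells, and 2.49% higher and 16.3% lower for CD25lo cells. The medians of all genes moved to -0.47 and -0.34.

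**Figure D5:**
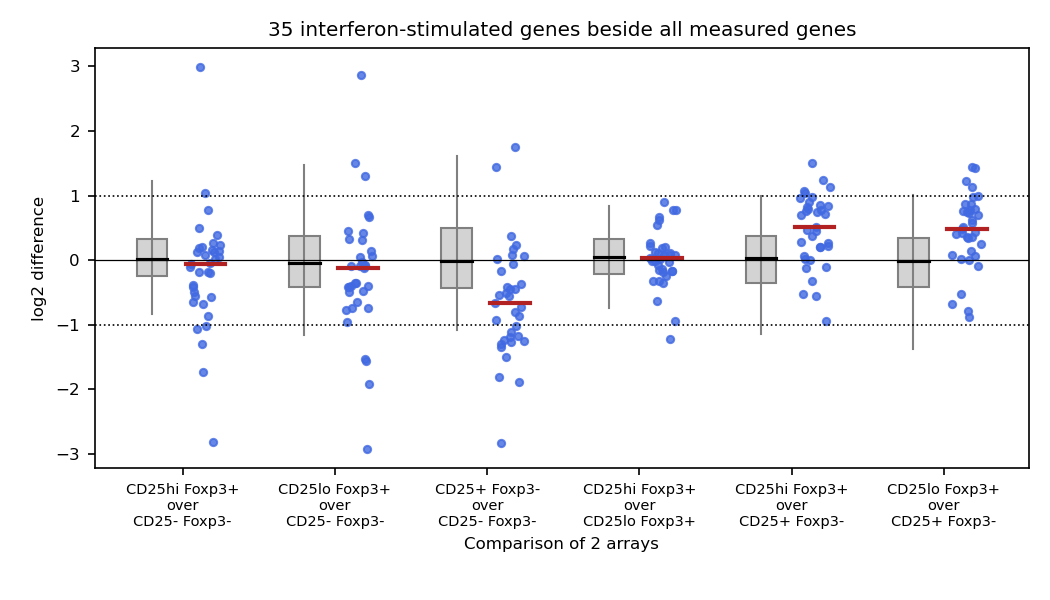
Log2 differences in the 6 comparisons of 2 arrays, with all 9622 measured genes as grey boxes (median and quartiles, lines from the 5th to the 95th percentile) and the 35 members as blue points with their median in red; dotted lines mark 2-fold. The members' median is lowest, at -0.66, for CD25+ over CD25- Foxp3- cells and is 0.52 and 0.48 for the Foxp3+ populations over CD25+ Foxp3- cells.

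Among the ligands of the pathway, Ifng, the gene of interferon gamma, read 139.6, 366, 1146 and 288 and was thus highest, by 3.97-fold over CD25- Foxp3- cells, in the population where most members read lowest. The 5 type I interferon genes with a probe set, Ifnb1, Ifna1, Ifna2, Ifna4 and Ifna5, were below the filter in all arrays, with a highest reading of 17.4. Of 5 measured receptor genes 3, Ifnar1, Ifngr1 and Il10rb, were lowest in CD25+ Foxp3- cells, against 30.6% of all genes. Ifnar1, Ifngr1 and Ifngr2 were at least 2-fold lower there than in the CD25- Foxp3- array, against 6.43% of all genes. Of the receptor genes 0 were as much higher, against 12.1%. The median log2 difference of the 5 was -1.11, against -0.66 for the members. Ifnar1 read 648, 606, 258 and 559 and Ifngr1 read 792, 1203, 267 and 834, so CD25+ Foxp3- cells were lowest for 1 chain of each receptor. Against CD25- Foxp3- cells they were lower by 2.16-fold and 3.13-fold. Ifngr2, the second chain for interferon gamma, read 203, 65.0, 128 and 288, and was lowest in CD25lo Foxp3+ cells. Ifnar2 read 474, 557, 459 and 428 and Il10rb, a chain for interferon lambda and IL-10, read 863, 885, 465 and 549.

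Downstream, 14 measured genes of signal transduction and its restraint held 1 with a reading 2-fold or more above that of the CD25- Foxp3- array in the CD25+ Foxp3- array, and 0 as far below it. Of all genes 12.1% were as far above and 6.43% as far below. The gene above was Irf4, a factor of activated lymphocytes, which read 912, 900.1, 1579 and 249.8. Irf5 read 62.6, 95.2, 44.0 and 27.6 and was 2.27-fold and 3.45-fold higher in the Foxp3+ populations than in CD25- Foxp3- cells. Socs1, the inhibitor of JAK kinases induced by interferon gamma, read 41.1 in CD25hi Foxp3+ cells and between 9.48 and 13.7 elsewhere, near the floor. Of 9 measured genes of nucleic acid sensing, 1 was at least 2-fold lower in CD25+ than in CD25- Foxp3- cells, against 6.43% of all genes. It was Ikbke, a kinase that activates IRF factors, with 2704, 1932, 1363 and 2943. In CD25hi Foxp3+ cells 1 of the 9 was at least 2-fold higher than in CD25- Foxp3- cells, against 7.09% of all genes. It was Tlr7, higher by 4.06-fold, with 160, 45.9, 28.6 and 39.4.

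A further list of interferon-induced genes, 48 of them measured, had 27 genes lowest in CD25+ Foxp3- cells, against 30.6% of all measured genes. In CD25+ against CD25- Foxp3- cells 5 of the 48 were at least 2-fold lower, against 6.43% of all genes, and 2 higher, against 12.1%, and the median log2 difference was -0.33, smaller than the members' -0.66. Those lower were Psmb10, Nlrc5, Slfn1, Slfn8 and Oas1b. Nlrc5, the activator of MHC class I genes, read 1417, 1349.7, 779 and 1675, and Slfn1 read 1933, 1497, 1891 and 4008, so CD25- Foxp3- cells stood apart as they did for Oas2. Those higher were Ifitm2, which reached the filter in the CD25+ Foxp3- array alone and so was measured only through the array where it is high, and the chemokine gene Cxcl10, which read 104, 237, 419 and 85.6 and so, like Ifng, was highest in CD25+ Foxp3- cells. The CD25hi Foxp3+ array exceeded the CD25- Foxp3- array by 2-fold or more in 3 of the 48 genes, against 7.09% of all. The CD25lo Foxp3+ array did so in 4, against 9.09%. As far below the CD25- Foxp3- array were 2 and 1 of the 48, against 3.74% and 6.88%. Gbp7 alone was in both higher sets, with 4969, 4240.4, 2724 and 1955, as Gbp3 and Iigp1 were among the members. Gbp6 was in the CD25lo set alone, and its CD25+ Foxp3- reading lay above its CD25hi Foxp3+ reading. The list was chosen with earlier results of these data known, and its counts are a description.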

How the data were processed

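Expression was read on 4 Affymetrix Mouse Genome 430 2.0 arrays, after 2 cycles of in vitro amplification per the labels. The deposited table gives a linear intensity for each probe set and array, and no source used here states the authors' summary, background correction or normalization. Groups came from the sample titles. Of 45101 probe sets, 64 controls were left out of the gene table, 34945 had exactly 1 gene, 932 had several and 9160 had none listed; all 57 probe sets of members matched the RefSeq gene table of assembly GRCm38.p6 by Entrez identifier, with 0 symbols changed. The columns' medians lay within 10%, so the deposited scale was kept. Intensities under the 40th percentile of all values were set to it, and a probe set was measured if 1 array or more was at the 60th percentile. Each gene was read from its measured probe set with the highest mean log2 intensity. Size rules were 2-fold between 2 arrays and a gap of 1.5-fold between pairs. Values in all arrays are given for members that met a rule, and others by range or in part. Of each pathway list, up to 4 genes that met the 2-fold rule were given with values, beside Ifng and the receptors; others that make up a small count are named only and were chosen after their values were seen. The members' counts and medians, and no other values, were recomputed without the floor, with a higher floor, with no or a stricter filter, with the median over probe sets, after quantile normalization, without 3 members that mark other cells and, chosen after seeing the data, with the arrays scaled to the hybridisation controls. The members and lists were chosen with earlier results of these data known. Scripts used Python 3.11.15, numpy 2.4.6, pandas 2.3.3 and matplotlib 3.10.9, and simulated data with known differences served to test the counts.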

Additional observations from a re-analysis of the deposited data

Results flagged for a closer look

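In 5 members the difference between populations ran in opposite directions in the 2 parts of the design, each by at least 1.5-fold. The same count over all measured genes was not made, so the 5 cannot be read as a trait of the list. The difference between the effects was not tested, since each population has 1 array. For Usp18, CD25hi over CD25lo within Foxp3+ cells was 0.78 on the log2 scale and CD25+ over CD25- within Foxp3- cells was -1.31. Seen by Foxp3, Usp18 was 1.13 higher with Foxp3 at the higher CD25 level and -0.96 at the lower one. Ifit1 had the same shape, with 0.67 and -1.90 by CD25 and with 1.04 and -1.54 by Foxp3. Oasl2 had 0.90 and -1.24 by CD25, with all but 1 of its arrays below the filter. Ifit3 had 0.82 and -0.75 by Foxp3. Irf8 ran the other way, with -0.95 by Foxp3 at the higher CD25 level and 0.66 at the lower one.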

How the results depend on the processing

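Over 26 counts and medians and 8 alternative settings, 189 of 208 values stayed within 1.5 times of the count, or within 0.2 of the median. The median of CD25hi over CD25lo Foxp3+ cells was the 1 median that changed sign, from 0.03 to -0.14 with the hybridisation controls. With the floor raised to the filter value, and with every array required to reach the filter, members at least 2-fold lower than in CD25- Foxp3- cells were 3 and 3 for CD25hi Foxp3+ and 2 and 2 for CD25lo Foxp3+ cells. Of all genes 2.91% and 2.39% were lower for CD25hi, and 5.9% and 5.66% for CD25lo Foxp3+ cells. Quantile normalization gave 2 members lower in CD25hi than in CD25lo Foxp3+ cells. Without Irf7, Irf8 and Bst2, 1 member, Gbp3, was at least 2-fold above CD25- Foxp3- cells in the CD25+ Foxp3- array. The scale set by the hybridisation controls, chosen after seeing the data, gave the other changes. It gave 14 members lowest in CD25+ Foxp3- cells in place of 22, 1 member higher and a median of -0.34 in CD25hi Foxp3+ against CD25- Foxp3- cells, and a median of -0.44 in CD25+ against CD25- Foxp3- cells. It gave 2 members lower in CD25hi against CD25lo Foxp3+ cells, Rsad2 and Eif2ak2. Against CD25+ Foxp3- cells it gave 1 higher, 3 lower and a median of 0.020 in CD25hi Foxp3+ cells, and 2 higher, 3 lower and a median of 0.15 in CD25lo Foxp3+ cells. It left 1 member in the Foxp3 pairing and 1, Usp18, in the pairing by neither marker. The count of 13 members lower in CD25+ than in CD25- Foxp3- cells ranged from 9 to 13. With every array required to reach the filter, 16 of 33 members were highest in CD25- Foxp3- cells, against 31.5% of all genes. No paired analysis was possible because each group has 1 array.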
